A study of Tigriopus californicus with 32 samples.

Results

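The 90 genes described here are those whose expression rose by at least 1.4 times after exposure to 28° in all 4 populations of the intertidal copepod Tigriopus californicus raised at a nonvariable 20°, with the best known heat-shock proteins set aside. They were chosen from values: a gene was a member when the mean of both 28ST libraries plus 1, divided by the mean of both 20NV libraries plus 1, reached 1.4 in each of them. Of 14329 genes listed for all 4 populations, 105 (0.733%) passed. The rule then dropped 16 genes, for the most part heat-shock proteins, of which 15 had passed, and 90 remained. The ratio was passed by 8.78% (BB-N), 4.38% (SC-N), 3.41% (BR-S) and 4.46% (SD-S) of genes on its own. The set was meant to hold no chaperones, but the descriptions go against this, since 10 members are described as heat-shock proteins or as co-chaperones. Of the 90 members, 70 (77.8%) had genomic transcript (GT) identifiers, against 73.9% of all listed genes, and the other 20 were de novo transcripts (DNT). Informative descriptions were at hand for 63 of them.

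The 4 treatments were 28ST (raised at a nonvariable 20°, then exposed briefly to 28°), 28V (raised under daily alternation of 20° and 28°, sampled at 28°), 20V (the same variable regime, sampled at 20°) and 20NV (nonvariable 20°, sampled at 20°). BB-N from Bodega Bay and SC-N from Santa Cruz are northern populations, BR-S from Bird Rock and SD-S from San Diego are southern ones, and the study asked how alike nearby populations of like heat tolerance are in their response, and which responses lie behind the competitive advantage of southern copepods under warm, variable conditions. Each library was made from a pool of 100 whole adults, with males and females in equal number, and 2 pools per population and treatment gave 32 libraries of 3647378 to 14509087 recovered reads (median 7413467). Since whole animals were pooled, a change in the proportion of a tissue and a change of RNA within its cells cannot be told apart.

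Heat unfolds proteins, and cells respond by making chaperones in the cytosol, by raising the folding capacity of the endoplasmic reticulum (ER) through the unfolded protein response, and by tagging damaged proteins with ubiquitin for breakdown. Transcription factors, enzymes of glucose and amino acid use and proteins that handle iron and heme also take part in stress responses of animals. Genes of each of these roles were among the members.

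One library stood apart. The 28V libraries of SC-N correlated with each other at r = 0.725 on the log2 scale, whereas the other pairs of 28V or 20V libraries correlated at 0.897 to 0.968. The first of these, called replicate a, had a summed value of 386 for 5 vitellogenin (yolk protein) genes, against 30209.8 in replicate b, and the sums in the 20V libraries of SC-N were 9275 and 49832. Over all populations these sums were between 386 and 30209.8 in the 28V libraries and between 4269 and 49832 in the 20V libraries, and the sums of 68 cuticle genes between 1579 and 9255 in the 28V libraries and between 2644 and 11961 in the 20V libraries. None of the vitellogenin or cuticle genes passed the test of 28V vs. 20V (limma, 5 genes with a median log2 change of -0.85 and 68 genes with a median of -0.19). At an unadjusted p under 0.05 (limma), 0 and 2 of them were lower in 28V, beside 6.52% of all genes, and none was higher. The part of a different make-up of the pools in the results below was not tested.

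Because the 28ST and 20NV libraries chose the members, the difference between them is a description only. The log2 difference, taken as log2(value + 1) averaged over both pools, had a median of 1.22 (BB-N), 1.03 (SC-N), 0.88 (BR-S) and 0.93 (SD-S). At the edge of the rule were TCALIF_04214 (anion exchange protein), with a lowest ratio of 1.402, a tubulin beta chain, comp44311_c0_seq2_30047, with 1.41 and TCALIF_09504, the methyltransferase setd7, with 1.42. Just outside were TCALIF_04022 (alkB homolog 1-like) with 1.394, TCALIF_01444 (C/EBP gamma) with 1.393 and TCALIF_01137 (a phosphatidylinositol phosphate kinase) with 1.383. Judged by the lowest of its 4 ratios, TCALIF_03375, which has no description, was the highest member, and its ratio was 12.5 (BB-N), 11.9 (SC-N), 14.0 (BR-S) and 16.7 (SD-S).

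The 28V and 20V libraries are separate pools that did not enter the ratio, though members were chosen with earlier results of these data known. In 28V vs. 20V, 88 of the 90 members were listed for all 4 populations. Members were higher at 28° there as well. All 88 had a mean log2 change above 0, against 50.3% of the 14448 genes tested, and 75 of them were above 0 in each of the 4 populations. The median change was 0.67 on the log2 scale (1.59-fold, quartiles 0.45 and 0.98), whereas the median of all genes was 0.00 and their 5th and 95th percentiles were -0.38 and 0.27. Computed separately for the 8 pairs of libraries, the median of the members was between 0.47 and 0.83 (SD 0.11).

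With the mean over the 4 populations tested gene by gene (limma, Benjamini-Hochberg adjustment over 14448 genes, adjusted p under 0.05), 34 of 88 members (38.6%) rose in 28V and none fell, whereas 64 of all genes (0.443%) rose and 7 (0.0484%) fell. Members thus made up 53.1% of the genes that rose. Of the others, 14 were genes that the rule dropped (15 of these were tested) and 16 were neither. At an unadjusted p under 0.05, 79 members were higher in 28V, against 5.63% of genes, and none was lower. The likelihood ratio test of edgeR on the recovered reads called 59 members up (1.09% of all genes) and none down. The count depended on the libraries. Replicate a or b of 1 population was left out (either library of such a pair, since the block then carries no information from the other). The count was then 20 or 20 for BB-N, beside 37 or 39 genes that rose. For SC-N it was 51 without replicate a (150 or 151 genes) and 16 without replicate b (30 genes). It was 26 or 18 for BR-S (45 or 33 genes) and 18 or 22 for SD-S (36 or 41 genes). Leaving out a whole population gave 9 members beside 16 genes that rose (BB-N), 35 beside 87 (SC-N), 10 beside 17 (BR-S) or 10 beside 14 (SD-S).

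In terms of single libraries, both 28V values exceeded both 20V values in 73 of 90 members in BB-N (16.6% of all genes), 59 of 90 in SC-N (13.1%), 67 of 89 in BR-S (13.4%) and 72 of 89 in SD-S (12.6%). In 36 of 88 members this held in all 4 populations, against 0.796% of 14448 genes. Without replicate a of SC-N 28V, a setting chosen after the data had been seen, it held in 50 of 88 members and 1.37% of genes. With all libraries, it held in 3 populations for 25 members (2.50% of genes), in 2 for 19 (8.98%) and in 1 for 8 (28.4%).

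**Figure D1:**
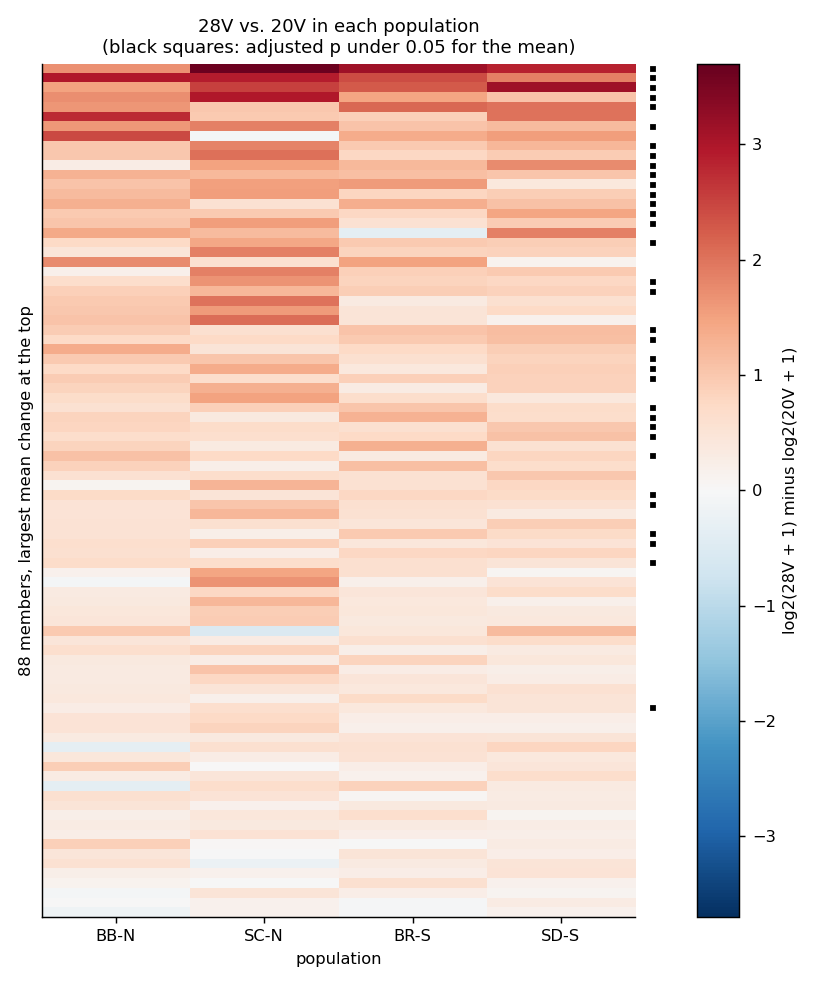
Each line of the heat map is 1 of the 88 members, ordered by its mean change with the largest at the top, and each column is a population; color gives log2(28V + 1) minus log2(20V + 1), averaged over both pools, and black squares mark the 34 members that rose by the limma test of the mean. Nearly all fields are red (higher in 28V), and the few blue ones (lower) are pale and absent from SD-S.

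The members that rose most have no informative description. Of the genes in the set that the study lists as differentially expressed in all populations but that fall in no role below, 5 of 8 tested rose; as this list was drawn up on these libraries, it is not independent evidence. The leading member was the DNT comp51313_c0_seq1_44507. Its northern values, in cpm (uniquely mapped reads scaled to the library size), were 410.0 and 280.1 in 28V against 95.6 and 114 in 20V in BB-N, and 458 and 1375 against 46.5 and 84.8 in SC-N. In the south they were 158 and 224 in 28V against 15.5 and 27.3 in 20V in BR-S, and 755 and 691 against 93.5 and 108 in SD-S. In every population the lowest 28V library was above the highest 20V library. The mean change was 2.82 ± 0.25 on the log2 scale (± SE, limma adjusted p = 0.00101), or 7.07-fold. By population it was 1.69 (BB-N), 3.64 (SC-N), 3.13 (BR-S) and 2.83 (SD-S).

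TCALIF_00461, also without a description, was called in 3 populations on their own. It had 228 and 70.6 cpm in 28V against 22.9 and 10.4 in 20V in BB-N, and 68.2 and 291 against 10.9 and 28.9 in SC-N. The values were 105 and 90.2 in 28V against 25.3 and 11.8 in 20V in BR-S, and 60.8 and 79.6 against 22.9 and 14.96 in SD-S. In both northern populations the 28V pools differed from each other by several fold, yet they did not overlap with 20V, and the mean change was 2.54 ± 0.19 (limma adjusted p = 0.000419).

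TCALIF_03376 and TCALIF_03375 have neighboring GT identifiers and both had few reads at 20°. TCALIF_03376 had 24.0 and 24.7 cpm in 28V against 10.5 and 6.16 in 20V in BB-N, 12.2 and 30.8 against 1.47 and 4.02 in SC-N, 16.9 and 15.9 against 3.74 and 1.74 in BR-S, and 114 and 62.0 against 8.08 and 9.42 in SD-S. It rose by 2.36 ± 0.23 (limma adjusted p = 0.00234). TCALIF_03375 was not listed for BR-S in this comparison and so was not in the test of the mean, and it had 28.9 and 15.8 cpm in 28V against 2.69 and 3.08 in 20V in BB-N, 10.7 and 59.3 against 2.72 and 3.23 in SC-N, and 32.8 and 23.7 against 3.82 and 2.72 in SD-S. Neither gene had overlapping groups in any population with values. Of the remaining leading members, Contig20_19 rose by 1.69 ± 0.20 (limma adjusted p = 0.00423, called in 26 of 29 alternative analyses). TCALIF_06802, whose description names only an uncharacterized mosquito gene, rose by 1.80 ± 0.29 (limma adjusted p = 0.0270), a call that was made in 14 of 29 alternative analyses. Its value in a 20V library of SC-N, 0.628 cpm, was its lowest.

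Also on the list of the study, TCALIF_13893, described as a short-chain dehydrogenase, a large family of oxidoreductases, rose by 1.25 ± 0.14 (limma adjusted p = 0.00344). TCALIF_01814, described as an adhesion lipoprotein, showed how far 1 library can decide a gene. It had 1115 and 1295 cpm in 28V against 327 and 146 in 20V in BB-N, 1278 and 1835 against 617 and 556 in BR-S, and 2059 and 1098 against 324 and 822 in SD-S. In SC-N, however, replicate a of 28V had 32.9 and replicate b 1347, against 136 and 367 in 20V. Its mean change of 1.33 ± 0.47 did not pass (limma adjusted p = 0.308), but without replicate a of SC-N 28V the adjusted p was 0.0149. The other members of the list, TCALIF_05480 (0.98, limma adjusted p = 0.170) and TCALIF_00957 (0.50, adjusted p = 0.181), did not pass either.

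**Figure D2:**
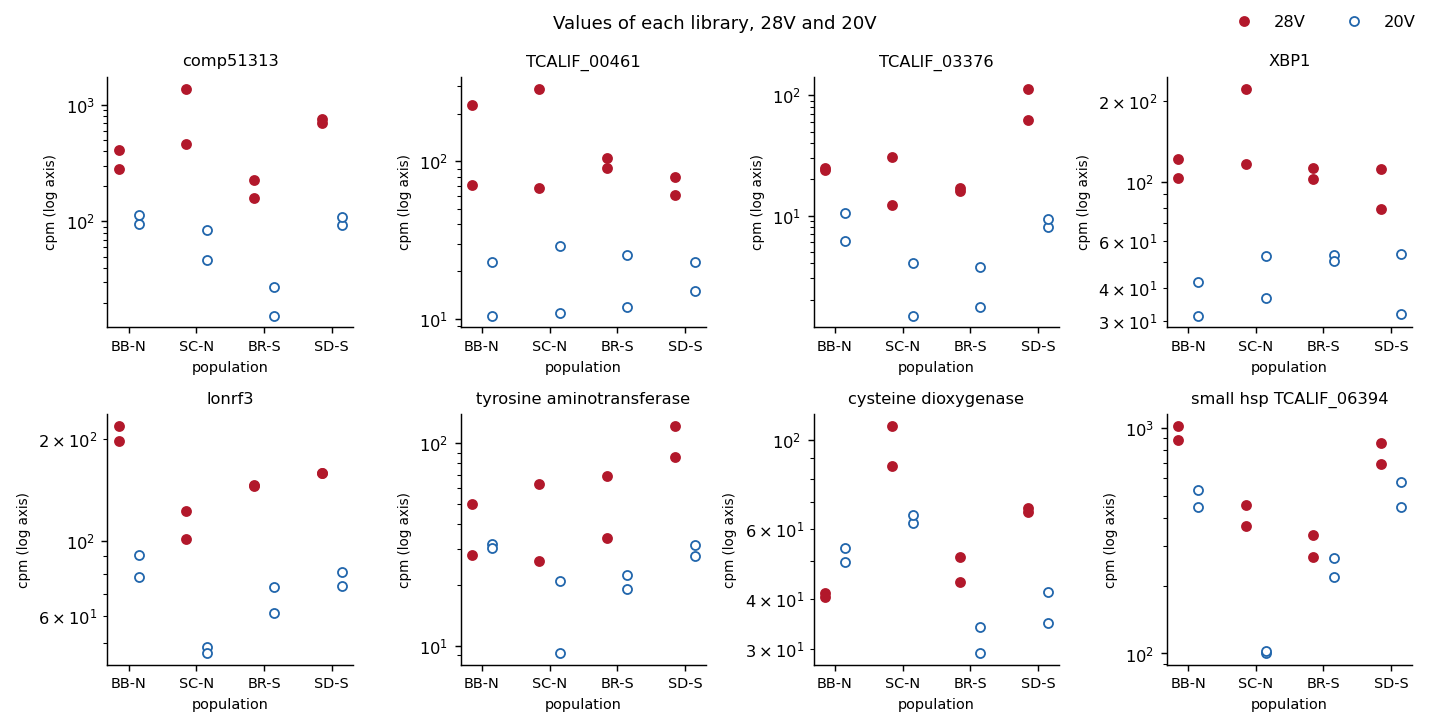
Values of single libraries for 8 members, in cpm (uniquely mapped reads scaled to the library size) on a log axis, for each population; filled red points are the 2 pools of 28V and open blue points the 2 pools of 20V. For comp51313, TCALIF_00461, TCALIF_03376, XBP1, lonrf3 and TCALIF_06394 the groups are apart in all 4 populations, tyrosine aminotransferase overlaps in BB-N, and cysteine dioxygenase is lower in 28V in BB-N only among these 4 populations.

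Members that act in folding within the ER rose in 3 of 4 cases, with a median log2 change of 0.92. The leading one was TCALIF_09115, described as x-box binding protein 1 (XBP1), the transcription factor that drives ER chaperone genes in the unfolded protein response of animals. XBP1 had 122 and 103 cpm in 28V against 31.4 and 42.2 in 20V in BB-N, 223 and 116 against 52.8 and 36.6 in SC-N, 103 and 113 against 53.2 and 50.2 in BR-S, and 112 and 79.0 against 32.0 and 53.6 in SD-S. The groups were apart in all 4 populations, and the mean change was 1.41 ± 0.16 (limma adjusted p = 0.00344). TCALIF_11129, described as protein disulfide isomerase A6, which forms and rearranges disulfide bonds in new proteins, had 319 and 332 cpm in 28V against 148 and 138 in 20V in BB-N, 432 and 330.5 against 124 and 134 in SC-N, 204 and 239 against 115 and 141 in BR-S, and 236 and 193 against 99.0 and 132 in SD-S. It rose by 1.10 ± 0.13 (limma adjusted p = 0.00344), again without overlap in any population. Both genes were called in 28 of 29 alternative analyses.

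The oxidase that regenerates protein disulfide isomerase, an ero1-like protein (Contig2194_4010), had values between 7.05 and 45.9 cpm in 28V and between 4.11 and 25.7 in 20V. It rose by 0.74 ± 0.13 (limma adjusted p = 0.0484), just under the threshold, and 11 of 29 alternatives called it. The fourth, comp24494_c0_seq1_12960, described as B-cell receptor-associated protein 31, an ER membrane protein, had a log2 change of 0.40 and did not pass (limma adjusted p = 0.107). Of 4 further genes whose descriptions name ER folding proteins, none passed (median 0.37). By limma, 3 of them were higher in 28V at an unadjusted p under 0.05, beside 5.63% of all genes. The search did not cover the glucose-regulated proteins, which are among the genes that the rule dropped. Of the 15 dropped genes tested, 14 rose.

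All 10 members that are described as chaperones or co-chaperones had changes above 0, with a median of 0.83, and 5 rose. Without this group, 29 of 78 members rose and the median was 0.66. The small heat-shock proteins, which hold unfolding proteins in solution, included TCALIF_04918 (hsp16), which rose by 1.19 ± 0.22 (limma adjusted p = 0.0493) and was called in 8 of 29 alternatives. Its largest value, 149 cpm, was in replicate a of SC-N 28V. A heat shock protein 70 (TCALIF_03946), which binds exposed hydrophobic stretches using ATP, rose by 0.98 ± 0.16 (limma adjusted p = 0.0270, called in 12 of 29), and a heat shock protein 40 (comp49814_c3_seq5_40727), the class of partners that deliver clients to hsp70, by 0.85 ± 0.13 (limma adjusted p = 0.0233, called in 15 of 29).

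A heat shock protein 90 (comp41334_c0_seq1_26338) had no overlapping groups in any population. It had 8.17 and 8.99 cpm in 28V against 5.37 and 5.66 in 20V in BB-N, 447 and 506 against 224 and 296 in SC-N, 562 and 605 against 233 and 346 in BR-S, and 511 and 510.4 against 314 and 329.5 in SD-S. The values in BB-N were far below those of the other populations. Only uniquely mapped reads were counted, and what part near-identical copies had in these levels was not tested. The change was 0.78 ± 0.087 (limma adjusted p = 0.00343). TCALIF_12367, a homolog of unc-45, the myosin chaperone, had the smallest rise of the group, 0.44 ± 0.066 (limma adjusted p = 0.0177, called in 16 of 29 alternatives). The hsp70-hsp90 organizing protein, which links these chaperones (0.82), the 97-kDa heat-shock protein (0.53) and dnaj homolog A1 (0.53) did not pass, with limma adjusted p values of 0.0791, 0.107 and 0.0922.

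The remaining small heat-shock proteins, TCALIF_06394 and TCALIF_13523, passed neither the limma test of the mean nor that of a difference among populations. TCALIF_06394 had 1024 and 882 cpm in 28V against 448 and 534 in 20V in BB-N, 456 and 367 against 100.3 and 103 in SC-N, 268 and 334 against 217 and 264 in BR-S, and 695 and 863 against 448 and 579.7 in SD-S. The groups were apart in each population, though barely so in BR-S, and the log2 change was 0.96 (BB-N), 2.00 (SC-N), 0.32 (BR-S) and 0.60 (SD-S). TCALIF_13523 had 427 and 445 cpm in 28V against 178 and 244 in 20V in BB-N, 183 and 147 against 33.5 and 43.5 in SC-N, 53.7 and 153 against 54.1 and 79.3 in BR-S, and 270.0 and 395 against 253 and 338 in SD-S. The groups overlapped in both southern populations and were apart in both northern ones. Their mean changes were 0.97 ± 0.21 and 0.94 ± 0.25 (limma adjusted p = 0.0953 and 0.178), and the adjusted p of the difference among populations was 0.926 for both.

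Of the 5 members tied to ubiquitin and protein turnover, 4 were tested and 1 rose, with a median of 0.73. That one, TCALIF_01587, described as LON peptidase N-terminal domain and RING finger protein 3 (lonrf3), a protein of a class that holds many ubiquitin ligases, had the smallest adjusted p of the role groups. It had 218 and 196 cpm in 28V against 78.3 and 90.7 in 20V in BB-N, 101 and 122 against 48.8 and 46.7 in SC-N, 146 and 145 against 61.6 and 73.2 in BR-S, and 159 and 158 against 81.0 and 73.6 in SD-S. The log2 changes of the 4 populations lay close together, at 1.29 (BB-N), 1.20 (SC-N), 1.10 (BR-S) and 1.03 (SD-S), and the mean was 1.15 ± 0.073 (limma adjusted p = 0.000246), a call made in all 29 alternatives.

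A DNT with nearly the same description, comp44483_c0_seq3_30269, was not listed for SD-S. It had log2 changes of 1.35 in BB-N, 0.98 in SC-N and 0.83 in BR-S. In BB-N its means were only 3.46 cpm in 28V and 0.757 in 20V, so it was listed there through its 28V group. By description, this entry and TCALIF_01587 may be parts or copies of 1 gene, which was not tested. The AN1-type zinc finger protein 2b (TCALIF_05616, 0.81), the ubiquitin ligase herc4 (TCALIF_04992, 0.66) and an ankyrin repeat and ibr domain protein (comp48819_c0_seq1_38146, 0.34) did not pass (limma adjusted p = 0.234, 0.0830 and 0.315). None of 52 further genes with turnover in their descriptions passed. By limma, 9 of them were higher and 0 lower in 28V at an unadjusted p under 0.05, beside 5.63% and 6.52% of all genes.

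Regulators of transcription and chromatin rose in 3 of 5 cases, with a median of 0.61. TCALIF_06839, a protein with SET and MYND domains, the class of SMYD methyltransferases, had 16.2 and 5.80 cpm in 28V against 4.75 and 4.27 in 20V in BB-N, 11.1 and 15.5 against 6.49 and 5.97 in SC-N, 4.38 and 4.68 against 2.01 and 2.55 in BR-S, and 6.86 and 5.66 against 2.35 and 1.07 in SD-S. These are low values, but no groups overlapped, and the rise was 1.04 ± 0.16 (limma adjusted p = 0.0205, called in 12 of 28 alternatives). The nuclear factor interleukin-3-regulated protein (nfil3, TCALIF_01646), a bZIP repressor in mammals, had 17.5 and 17.1 cpm in 28V against 7.02 and 10.5 in 20V in BB-N, 9.74 and 15.97 against 9.63 and 6.07 in SC-N, 7.81 and 9.56 against 4.31 and 4.06 in BR-S, and 13.2 and 9.27 against 6.02 and 5.44 in SD-S. It rose by 0.83 ± 0.14 (limma adjusted p = 0.0334), with SC-N barely free of overlap, and 11 of the 28 alternatives that tested it called it.

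The lysine methyltransferase setd7 (TCALIF_09504) rose by 0.61 ± 0.11 (limma adjusted p = 0.0484) and was called in 11 of 29 alternatives, while another SET and MYND protein (TCALIF_00296) had 0.60 and did not pass (limma adjusted p = 0.0538). TCALIF_11019, kayak, the Fos protein of Drosophila and a rapid responder to stress signals there, was uneven: it had 40.2 and 41.9 cpm in 28V against 31.4 and 60.0 in 20V in BB-N, 303 and 51.7 against 61.5 and 24.1 in SC-N, 49.5 and 50.6 against 45.4 and 43.0 in BR-S, and 62.1 and 71.6 against 41.4 and 51.9 in SD-S. The high value of 303 was that of replicate a of SC-N 28V, groups overlapped in SC-N and BB-N, and the change of 0.57 did not pass (limma adjusted p = 0.394). Among 135 further genes described by transcription factor, nuclear receptor, homeobox, Krueppel or zinc finger, none passed. By limma, 17 of these were higher and 9 lower in 28V at an unadjusted p under 0.05, beside 5.63% and 6.52% of all genes. Chromatin terms were not searched.

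Genes of glucose and amino acid metabolism had a median of 0.65, and 2 of 8 rose. Tyrosine aminotransferase (TCALIF_12922), which starts the breakdown of tyrosine, had 28.1 and 50.4 cpm in 28V against 31.8 and 30.4 in 20V in BB-N, 26.3 and 63.2 against 9.21 and 21.0 in SC-N, 68.7 and 34.2 against 22.4 and 19.1 in BR-S, and 122 and 85.7 against 27.9 and 31.6 in SD-S. The groups were apart in 3 populations and overlapped in BB-N, and the mean rise of 1.17 ± 0.21 was just under the threshold (limma adjusted p = 0.0493, called in 10 of 29 alternatives). Regulatory subunit 3D of protein phosphatase 1 (comp39174_c0_seq1_23817), a class of subunit that brings the phosphatase to glycogen in mammals, had 20.1 and 21.5 cpm in 28V against 13.6 and 12.3 in 20V in BB-N, 27.6 and 38.4 against 23.0 and 19.2 in SC-N, 36.0 and 34.8 against 19.6 and 22.6 in BR-S, and 48.4 and 44.6 against 19.5 and 23.4 in SD-S. It rose by 0.76 ± 0.11 (limma adjusted p = 0.0124, called in 22 of 29 alternatives) without overlap in any population.

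A pair of entries was described as phosphoenolpyruvate carboxykinase, the enzyme that commits carbon to glucose synthesis, and they may be copies or parts of 1 gene. TCALIF_03643 had a log2 change of 0.69 and comp40951_c0_seq1_25881 of 0.62, and neither passed (limma adjusted p = 0.115 and 0.102). Monocarboxylate transporter 12 (0.67), glutaminase (0.40) and a sugar transporter (0.37) did not pass, with limma adjusted p values of 0.175, 0.363 and 0.316. Cysteine dioxygenase (TCALIF_03756), which begins the breakdown of cysteine, had lower values in 28V in BB-N. It had 40.5 and 41.5 cpm in 28V against 49.6 and 53.7 in 20V in BB-N, 86.0 and 109 against 62.0 and 64.9 in SC-N, 51.0 and 44.2 against 29.3 and 34.1 in BR-S, and 66.2 and 67.8 against 35.0 and 41.7 in SD-S. Its mean change was 0.41 (limma adjusted p = 0.319), and the test of a difference among populations did not pass after adjustment (limma, unadjusted p = 0.0059, adjusted p = 0.926).

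Among the 5 genes of iron and heme the median was 0.78, and 2 rose. Solute carrier family 40 member 1 (TCALIF_10264), named after ferroportin, the iron exporter of vertebrates, had 33.3 and 25.6 cpm in 28V against 16.3 and 16.2 in 20V in BB-N, 33.9 and 39.4 against 26.6 and 18.9 in SC-N, 45.1 and 25.96 against 25.89 and 19.02 in BR-S, and 35.0 and 30.1 against 17.5 and 14.2 in SD-S. The groups did not overlap, though barely so in BR-S, and the rise was 0.77 ± 0.10 (limma adjusted p = 0.00715, called in 26 of 29 alternatives). Metalloreductase steap3, which reduces iron in vertebrate endosomes, had a pair of entries with much the same changes. TCALIF_05273 rose by 0.78 ± 0.14 (limma adjusted p = 0.0481, called in 10 of 29 alternatives), and comp38150_c0_seq1_22653, with 0.76 ± 0.16, did not pass (limma adjusted p = 0.0814); their changes were 0.83 and 0.81 in BB-N, 0.35 and 0.35 in SC-N, 1.30 and 1.31 in BR-S and 0.64 and 0.57 in SD-S, and they may be entries of 1 gene. Heme-binding protein 2 (TCALIF_01798, 0.99) and heme-binding protein 3 (TCALIF_08504, 0.87) did not pass (limma adjusted p = 0.240 and 0.0539).

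The group of channels and membrane proteins listed for signalling held 3 members, of which 2 rose. It does not hold every membrane protein of the set: transporters are counted above or among the members with no role group, such as the anion exchange protein TCALIF_04214, whose change of 0.29 did not pass (limma adjusted p = 0.375). TCALIF_00198 was described as the channel TRPA1, which in Drosophila opens on warming and on irritants. It had 12.6 and 10.015 cpm in 28V against 5.37 and 5.17 in 20V in BB-N, 5.95 and 6.75 against 2.51 and 2.64 in SC-N, 5.71 and 5.93 against 4.60 and 2.67 in BR-S, and 11.3 and 6.58 against 3.82 and 5.25 in SD-S. No groups overlapped, and the rise was 0.85 ± 0.14 (limma adjusted p = 0.0272), a call made in 14 of 28 alternatives with adjusted p up to 0.269. Protein rolling stone (TCALIF_12659), needed for muscle fusion in Drosophila, had 10.4 and 8.54 cpm in 28V against 4.13 and 4.07 in 20V in BB-N, 10.6 and 14.2 against 2.93 and 4.31 in SC-N, 6.09 and 6.84 against 3.74 and 4.29 in BR-S, and 15.8 and 11.8 against 4.85 and 8.84 in SD-S. It rose by 1.02 ± 0.16 (limma adjusted p = 0.0243), also called in 14 of 28 alternatives. A second channel, described as pyrexia (TCALIF_06511), which is opened by heat in Drosophila, had a log2 change of -0.37 (BB-N), 0.65 (SC-N), 0.86 (BR-S) and 0.34 (SD-S), and did not pass (limma adjusted p = 0.420).

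**Figure D3:**
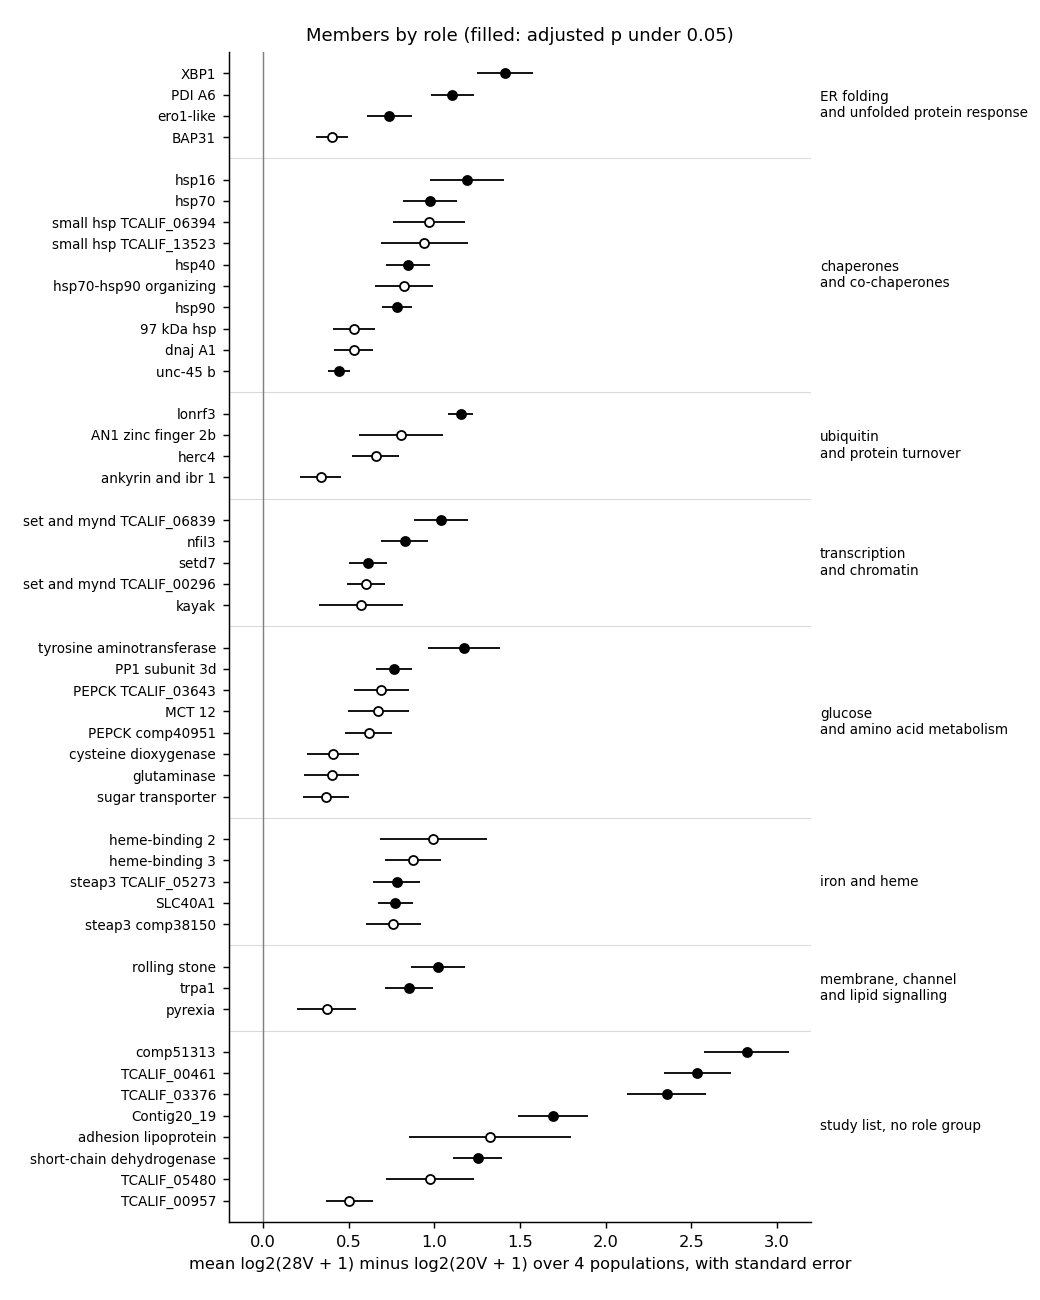
Mean log2(28V + 1) minus log2(20V + 1) over the 4 populations for the members with a role or on the list of the study, with standard errors; filled points passed the limma test (adjusted p under 0.05) and open points did not. Every point lies right of 0, the genes with no role reach the farthest (comp51313 at 2.82), and lonrf3 has the shortest error bar among those with changes above 1 (SE 0.073).

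The remaining 41 members had no role group, and 11 of these rose, with a median of 0.50. The smallest changes of the whole set were 0.19 for TCALIF_05143 (no description), 0.10 for TCALIF_11168 (unzipped, an adhesion protein of Drosophila axons) and 0.02 for TCALIF_12857, described as ribosomal protein S6 kinase alpha-5. None of these 3 passed, and the last had changes of -0.16 (BB-N), 0.15 (SC-N), -0.05 (BR-S) and 0.15 (SD-S). In the wider lists of genes with similar descriptions, besides those given above, none of 17 glucose and amino acid genes, 7 iron and heme genes and 16 lipid signalling genes passed the test. At an unadjusted p under 0.05 (limma), 3, 2 and 1 were higher in 28V and 1 lower in each list, beside 5.63% and 6.52% of all genes. The medians of these lists were 0.07, 0.23 and 0.01. Descriptions were at hand for a part of the genes only, which limits these counts.

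Within single populations only 4 libraries enter each test, and far fewer members passed. By limma, 5 of 90 members rose in BB-N (0.0962% of genes), 20 of 90 in SC-N (0.519%) and 8 of 89 in BR-S (0.142%). In SC-N the p-values rest on a variance shared by genes of like level, not on the spread of each gene. Calls there include members whose groups overlap, such as kayak and TCALIF_07023. The latter had 1.32 and 58.2 cpm in 28V against 2.09 and 3.92 in 20V. None of 89 rose in SD-S, where no gene passed in either direction (0%). By limma, 61 members there had an unadjusted p under 0.05, beside 761 of 17987 genes. In SD-S the likelihood ratio test of edgeR called 20 members, beside 87 genes that rose. Its quasi-likelihood test called 0, beside 0 genes, and DESeq2 called 13, beside 37 genes. No member fell by this test in any population, against 0.730% of genes in BB-N, 1.52% in SC-N and 0.0456% in BR-S. Without a replicate block 1 of the BB-N members passed and none in the other populations. Leaving out 1 library also meant leaving out the block and set 1 library against 2, with the single one assumed to vary like the pair. The median log2 change of the members was then between 0.58 and 0.79 in BB-N and 0.58 and 0.84 in SC-N. It was between 0.61 and 0.68 in BR-S and 0.53 and 0.78 in SD-S. In SC-N the median was 0.58 without replicate b of 28V, where the library that stood apart was the only 28V library. Without replicate a of 28V it was 0.84.

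The 5 of BB-N were lonrf3, protein disulfide isomerase A6, TCALIF_00461, TCALIF_06906 and TCALIF_08964, which are named because they are few, after their values were seen. In all, 22 members were called in 1 population, 4 in 2 and TCALIF_00461 in 3. The medians of all members in 28V vs. 20V were 0.63 (BB-N), 0.75 (SC-N), 0.59 (BR-S) and 0.66 (SD-S).

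The response of members was not shown to differ among populations. In a moderated F test of the differences among the 4 responses (limma), none of 88 members and none of 14448 genes (0%) passed, and 12 members had an unadjusted p under 0.05, against 2.56% of genes. The likelihood ratio test of edgeR called 3 members (0.630% of genes), which were TCALIF_06394 (adjusted p = 0.0133), TCALIF_13523 (adjusted p = 0.0255) and comp51313_c0_seq1_44507 (adjusted p = 0.0312). Leaving out replicate b of SC-N 20V or 28V, which keeps the library that stands apart, gave 5 members by limma (beside 480 or 496 of all genes), namely TCALIF_06394, TCALIF_05480, herc4, the AN1-type zinc finger protein and kayak.

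For the response of northern minus that of southern populations, again none of 88 members passed (0% of genes), and 12 had an unadjusted p under 0.05, of which 10 were higher in the north, against 2.64% of genes in either direction. The edgeR test called none. The small heat-shock proteins had the smallest p. TCALIF_06394 averaged 1.48 in the north and 0.46 in the south, a difference of 1.02 ± 0.18 on the log2 scale (limma, unadjusted p = 0.000693, adjusted p = 0.865), and TCALIF_13523 averaged 1.57 in the north and 0.31 in the south, a difference of 1.25 ± 0.26 (limma, unadjusted p = 0.00162, adjusted p = 0.865). Both passed when replicate b of SC-N 20V or 28V was left out (beside 293 or 291 of all genes), and no other member did. Each lane held a northern and a southern population (BB-N with BR-S, SC-N with SD-S).

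In the variable regime the change at 28° was mostly smaller than after a single exposure. The log2 difference of 28V vs. 20V was below that of 28ST vs. 20NV in 86 of 90 members in BB-N, 63 of 90 in SC-N, 67 of 89 in BR-S and 79 of 89 in SD-S. Members were chosen for high values in 28ST vs. 20NV and not in 28V vs. 20V, which by itself raises the one and not the other, so this count is a description and no test was made. Across members, which are not independent, the differences of both regimes correlated with Pearson's r of 0.69 (BB-N), 0.65 (SC-N), 0.57 (BR-S) and 0.78 (SD-S) (Spearman's rho 0.64, 0.54, 0.34 and 0.70). Tyrosine aminotransferase (TCALIF_12922) had 28ST vs. 20NV differences of 0.65 (BB-N), 1.82 (SC-N), 1.32 (BR-S) and 2.39 (SD-S) beside 0.27, 1.48, 1.19 and 1.75 in 28V vs. 20V, and the limma test of a difference among populations in the variable regime did not pass (adjusted p = 0.926). For lonrf3 the 28ST vs. 20NV differences were 1.13, 1.13, 1.16 and 1.12 in the same order, close to those of the variable regime.

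**Figure D4:**
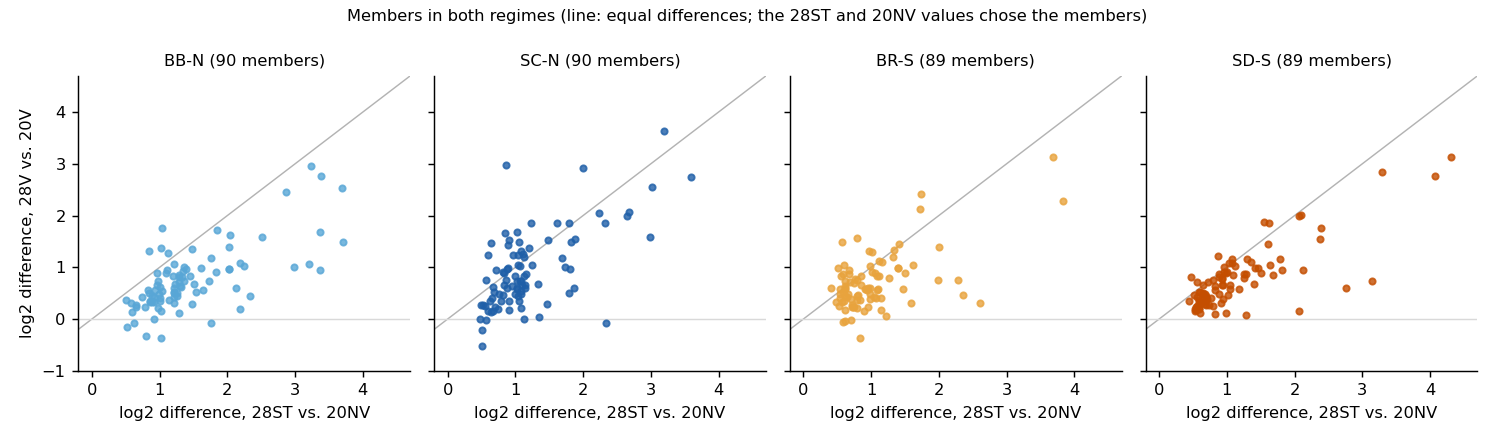
For each population, the log2 difference of 28ST vs. 20NV (x axis) and of 28V vs. 20V (y axis) of each member, on the scale of log2(value + 1), with a line where both are equal. Most points lie below the line, 86 of 90 in BB-N and 79 of 89 in SD-S, and few lie below 0 on the y axis.

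At 20°, members as a set did not stand on 1 side of their nonvariable level. This comparison, 20V vs. 20NV, shares the 20NV libraries with the choice of the members and is given as a description. The median log2 difference was 0.04 (BB-N), 0.16 (SC-N), -0.05 (BR-S) and 0.10 (SD-S). Both 20V libraries exceeded both 20NV libraries in all 4 populations in 3 of 87 members (0.477% of 14478 genes) and in 3 populations in 8 members (3.03%). They were below in 3 populations in 5 members (2.87%) and in all 4 in none (0.325%).

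The 3 that were higher in every population were both small heat-shock proteins just described and the adhesion lipoprotein. TCALIF_06394 had 443 and 523 cpm in 20V against 114 and 105 in 20NV in BB-N, 102 and 105 against 67.0 and 59.7 in SC-N, 212 and 259 against 87.1 and 47.2 in BR-S, and 444 and 575 against 90.7 and 122 in SD-S. Its log2 differences were thus 2.12, 0.70, 1.85 and 2.25, smallest in SC-N, the population with its largest 28V vs. 20V change. TCALIF_13523 gave 1.96, 0.55, 2.63 and 2.88 in the same order of populations, also smallest in SC-N. TCALIF_01814, the adhesion lipoprotein, had 323 and 143 cpm in 20V against 97.8 and 71.4 in 20NV in BB-N, 138 and 375 against 16.7 and 46.4 in SC-N, 601 and 545 against 133 and 321 in BR-S, and 321 and 816 against 233 and 67.9 in SD-S. Since 20V enters both comparisons, a high 20V value raises the one difference and lowers the other.

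Tyrosine aminotransferase was among the 5 that were lower in 3 populations. It had 31.4 and 29.8 cpm in 20V against 68.5 and 82.6 in 20NV in BB-N, 9.37 and 21.4 against 39.6 and 40.6 in SC-N, 21.9 and 18.8 against 25.7 and 41.5 in BR-S, and 27.6 and 31.3 against 30.5 and 24.7 in SD-S. The groups overlapped in SD-S alone, and the differences were -1.27, -1.43, -0.66 and 0.10. The phosphatase subunit comp39174_c0_seq1_23817, another of the 5, had differences of -0.07, -0.45, -0.66 and -0.77. Also among them were TCALIF_00957, TCALIF_08964 and comp49397_c0_seq1_39570, named after their values were seen.

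**Figure D5:**
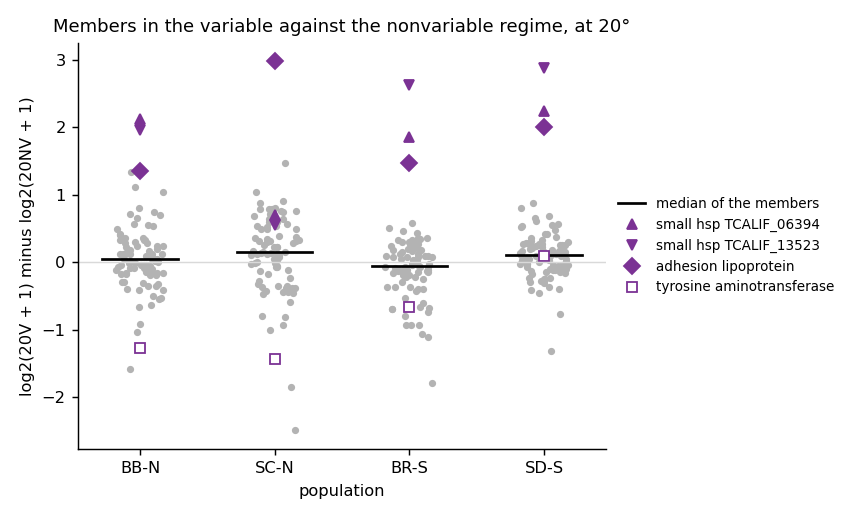
Log2(20V + 1) minus log2(20NV + 1) of each member (gray points) in each population, with the median of the members as a black line and 4 members as purple symbols. Medians lie between -0.05 and 0.16, both small heat-shock proteins and the adhesion lipoprotein lie above 0 in all populations, and tyrosine aminotransferase (open squares) lies below 0 in BB-N, SC-N and BR-S.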

How the data were processed

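Reads of 32 libraries (100 bp, unstranded) were trimmed, mapped with CLC Genomics Workbench to the genomic and then the de novo transcripts of each population, and kept where unique, as the methods of the study describe. The signal deposited by the authors is the unique read count of a gene divided by the TMM-scaled library size in edgeR (cpm), in 12 tables, 1 per population and comparison. Genes with low values had been removed, and the second highest value of every listed gene was at least 1.74, so a member could be listed through its high group alone. The fold changes, p-values and FDR of the authors in these tables were not used, nor were 4 columns that repeat values. Each value times its library size gave whole reads (100% of entries, tolerance 0.001 reads). Tables were normalized separately, so tests stay within a table or compare changes.

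The study used an edgeR likelihood ratio test with sequencing lane as block. As the values are normalized, limma 3.58.1 (R 4.3.3) was run on log2(value + 1), which understates changes of low genes, with empirical Bayes moderation and variance trend, two-sided, Benjamini-Hochberg adjusted over all genes, and adjusted p under 0.05 was the threshold. Blocks were the 8 pairs of population and column suffix (called replicates a and b here), which stand in for the lane and were not matched to the numbers in the sample titles. The fit of the mean left 7 residual degrees of freedom and counted the pairs of 1 population as separate. Its SE therefore holds the spread of pools and differences among populations alike. Same-suffix 28V and 20V deviations correlated at 0.09 (BB-N), 0.49 (SC-N), 0.34 (BR-S) and 0.16 (SD-S). Replicates are separate pools, and differed by more than sampling noise. Alternatives were edgeR 4.0.16 and DESeq2 1.42.0 on recovered reads, no block, no trend, pseudocounts of 0.5 and 2, a filter at a mean of 10, upper-quartile scaling, and left-out libraries and populations. For the mean over populations, leaving out either library of a pair gave nearly the same fit. Counts of alternatives that called a gene therefore hold such repeats and are not all separate checks. The fits were tested on simulated data.

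Members and role groups were chosen with earlier results of these data known. Named are the members of role groups and of the list of the study, the 5 largest and 3 smallest changes, and 3 genes on each side of the threshold of the rule. Descriptions come from the deposited list and the supplement, which hold text for 4508 genes, informative for 3086. None of the 21556 identifiers matched the RefSeq gene list at hand, so sequences and positions are not given.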

Additional observations from a re-analysis of the deposited data

Results flagged for a closer look

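In 4 members both pairs of libraries with the same suffix were lower in 28V in 1 population and higher in another. Cysteine dioxygenase (TCALIF_03756) had a log2 change in 28V vs. 20V of -0.32 in BB-N, with 40.5 and 41.5 cpm in 28V against 49.6 and 53.7 in 20V, whereas it was 0.60 (SC-N), 0.57 (BR-S) and 0.79 (SD-S). The limma test of a difference among populations gave an unadjusted p of 0.0059 and an adjusted p of 0.926, and the gene was not called in any of the 29 alternative analyses of the mean. The channel pyrexia (TCALIF_06511) had -0.37 in BB-N, where 28V had 18.5 and 10.9 cpm against 22.7 and 15.4 in 20V with overlap of the groups, beside 0.65 (SC-N), 0.86 (BR-S) and 0.34 (SD-S); the same test gave an unadjusted p of 0.0196 and an adjusted p of 0.926. TCALIF_09316, described as a glucuronosyltransferase and named after its values were seen, had -0.52 in SC-N, with 3.63 and 11.9 cpm in 28V against 8.37 and 12.1 in 20V, and the lowest of these was the library that stood apart, beside 0.97 (BB-N) and 1.16 (SD-S), with an adjusted p of 0.926 for the difference among populations by limma. Unzipped (TCALIF_11168) had -0.038 in BR-S and 0.29 in SD-S (limma adjusted p = 0.926 for the difference).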

How the results depend on the processing

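The median change of the members moved little, from the main 0.67 to between 0.64 and 0.71 over all alternatives, and no member fell in any of them. The number of 88 members that rose in the mean was 34, beside 64 genes that rose. It was 59 with the likelihood ratio test of edgeR (157 genes), 61 with DESeq2 (156 genes) and 36 without a replicate block (68 genes). These sets held 34, 34 and 33 of the original 34. The number was 34 with the quasi-likelihood test (64 genes) and 31 without a variance trend (58 genes). With upper-quartile scaling it was 29 (56 genes), and with a mean of at least 10 it was 27 of 80 tested (55 genes). Between 16 and 51 members rose with 1 library left out (30 to 151 genes). Without BB-N, SC-N, BR-S and SD-S, 9, 35, 10 and 10 members rose (16, 87, 17 and 14 genes). Within BB-N (5) the count was 1 without a replicate block, 0 without a trend, 36 with the likelihood ratio test, 18 with DESeq2 and 0 to 7 with 1 library left out. Within SC-N (20, beside 95 genes that rose) it was 0 without a block (0 genes) and 11 with the likelihood ratio test (48 genes). It was 13 with the quasi-likelihood test (53 genes), 10 with DESeq2 (32 genes) and 13 with the filter (48 genes). Within BR-S (8) it was 0 without a block, 1 without a trend (3 genes that rose) and 4 with the filter (12 genes). It was 18 with the likelihood ratio test (68 genes) and 5 with the quasi-likelihood test (19 genes). With pseudocounts of 0.5 and 2 it was 5 (19 genes) and 15 (38 genes). Within SD-S (0) it was 20 with the likelihood ratio test (87 genes) and 13 with DESeq2 (37 genes). The difference among populations gave 3 members with the likelihood ratio test and 0 to 5 with 1 library left out, and northern minus southern response 0 to 2; without a block both gave 0. Among named genes only TCALIF_12857 changed direction, at -0.0226 without SD-S, -0.0214 without SC-N and between -0.0509 and 0.11 with 1 library left out. The causes were not tested. Within a population, leaving out 1 library went with leaving out the block, and only the member medians are given for it above. In 28V vs. 20V, same-suffix deviations correlated above 0.1 in 3 of the 4 populations and at 0.09 in BB-N. In 28ST vs. 20NV these correlations were -0.03 (BB-N), -0.02 (SC-N), 0.29 (BR-S) and 0.37 (SD-S). In 20V vs. 20NV they were 0.21, 0.28, -0.35 and 0.22 in the same order. Replicate a had fewer reads than replicate b in every group, and the study sequenced replicates in separate lanes. That the suffix marks the lane was not established from the column names, and a call lost without the block is no measure of effect size. With 2 pools per group and 1 residual degree of freedom within a population, the depth of 3646890 to 14509087 reads per library is not the only limit, and low genes rest on few reads.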
